A study of Mus musculus with 6 samples.

Results

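The ephrin and semaphorin guidance genes comprised 53 of the 23420 genes in the count files. They were every gene whose symbol placed it among the ephrins, Eph receptors, semaphorins, plexins or neuropilins, and no measured value entered that choice. Of the 53, 28 encode ligands (8 ephrins and 20 semaphorins). The other 25 encode receptors (14 Eph receptors, 9 plexins and 2 neuropilins). They were measured by RNA sequencing in mouse palatal tissue that would form the anterior hard palate, taken from C57BL/6 embryos at E14.5. The mutant embryos were Shox2Cre/-;Nkx2.5F/F and the control embryos Shox2Cre/+;Nkx2.5F/F, with 3 libraries of each. In both groups Cre sits in a Shox2 allele and Nkx2-5 is floxed on both chromosomes, so the groups differ in the remaining Shox2 allele and the controls were not wild type. How many embryos a library holds is not in the labels, so p-values measure only the spread between these libraries, which may be technical.

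Ephrins are ligands held on the cell surface, the A type by a lipid anchor and the B type by a membrane-spanning segment. Eph receptors are tyrosine kinases that bind them at cell contacts, and signals can pass into both cells. Semaphorins are secreted (class 3) or membrane-bound ligands whose signal enters the cell through plexins, with neuropilins as co-receptors for most class 3 members. Both systems steer axons, vessels and migrating cells and keep cell populations apart. In the palate, mice without ephrin-B1 and mice without both Ephb2 and Ephb3 can have cleft palate.

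Total counts were 53331397, 52668242 and 53049171 in mutant replicates 1, 2 and 3, against 81950407, 105125474 and 134813429 in the controls, so every control was deeper. Gene positions are those of GENCODE M21 on GRCm38. Log2 ratios and fold changes are mutant over control, with SE for standard error. Levels below are CPM, counts scaled to library size with TMM factors. Shox2, the targeted homeobox gene, had 5.30, 4.12 and 3.13 CPM in the mutants, against 88.2, 68.2 and 81.7 CPM in the controls. Replicate 1 stood apart in both groups. Among the 51 guidance genes with an average log2 CPM of at least 1, 5 lay over 1.5-fold from the other 2 libraries of the group in mutant replicate 1 (9.80%, against 7.03% of all such genes), and 5 in control replicate 1 (9.80%, against 8.25%). Marker lists of several other cell types also moved with genotype, beside 24.1% of all genes called higher and 21.7% lower. All 20 epithelial markers were called higher, with summed levels of 8770 to 10742 CPM in the mutants, against 1441 to 2466 CPM in the controls. Of 13 macrophage markers 12 were called higher (423 to 533 CPM in the mutants, against 105 to 184 CPM in the controls). Of 18 endothelial markers 4 were called higher (22.2%, near the share of all genes). Their sums overlapped (874 to 1114 CPM in the mutants, against 694 to 910 CPM in the controls). Of 14 osteoblast markers tested 10 were called lower, 8 of them with every mutant below every control. The list summed to 10358 to 11553 CPM in the mutants, against 6167 CPM in control replicate 1 and 18355 and 15637 CPM in control replicates 2 and 3. Col1a1, Col1a2 and Sparc, which were not called, made up most of that sum. Of 16 nerve and glial markers 6 were called lower without overlap, all of them neuronal (Tubb3, Elavl3, Elavl4, Stmn2, Stmn3 and Snap25). The neuronal markers Nefl, Nefm and Syt1 overlapped and were not called (log2 ratios -0.25, -1.22 and 0.48). Erbb3 alone was called higher, with 66.4 to 75.6 CPM in the mutants, against 18.5 to 41.5 CPM in the controls, so that the summed list overlapped (126 to 168 CPM in the mutants, against 121 to 230 CPM in the controls). Of 13 skeletal muscle markers tested 8 were called lower (9.78 to 14.9 CPM in the mutants, against 102 CPM in control replicate 1 and 16.4 and 38.4 CPM in control replicates 2 and 3). Of 15 palatal mesenchyme markers 6 were called lower, Shox2 among them, and 2 higher. Of 12 chondrocyte markers 3 were called lower (25%), and of 9 mural cell markers 2 were called higher (22.2%). No listed marker was at 0 in every library. In bulk tissue, fewer cells of a type and less RNA per cell cannot be told apart.

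All 53 guidance genes passed the filter on low counts, and 30 were called (edgeR quasi-likelihood test, adjusted p under 0.05), 14 higher and 16 lower in the mutant. That is 56.6% of them, against 45.8% of all 16604 genes tested and 48.6% of those with an average log2 CPM of at least 1. The share called higher was 26.4% (24.1% of all genes) and the share called lower 30.2% (21.7% of all genes). The median log2 fold change was -0.02 for the guidance genes and -0.0043 for all genes, and the median size regardless of sign was 0.43 and 0.38. Most changes were moderate: 8 guidance genes (15.1%, against 14.9% of all genes) passed a test against 1.5-fold, 6 of them higher (11.8% of all genes were) and 2 lower (3.04% of all genes). Also 8 were called and changed over 2-fold, 4 in each direction (17.3% of all genes in either direction, 13.9% higher and 3.39% lower). The 3 mutant and 3 control values did not overlap for 33 of the 53 (62.3%, against 58.9% of all genes), 16 higher and 17 lower (29.7% and 29.2% of all genes). The split of calls moved with a correction for GC content and gene length. It was 11 higher and 22 lower when the correction was left uncentred, which shifted the median of all genes to -0.21, added calls of Efna1, Ephb2, Nrp2, Sema4c, Sema4d, Sema4f and Sema4g as lower, and called 55.2% of all genes (18% higher and 37.2% lower). It was 15 higher and 11 lower when centred, with 47.7% of all genes called (25.4% higher and 22.3% lower). Without control replicate 1 the calls were 15 up and 17 down (44.4% of all genes called, 23% higher and 21.5% lower). With the first replicate of each group left out, they were 17 up and 18 down (54.1% of all genes called, 27.3% higher and 26.8% lower).

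Ligands and receptors had different splits of calls. Of the 28 ligands 5 rose (17.9%) and 12 fell (42.9%), and of the 25 receptors 9 rose (36%) and 4 fell (16%). Among all genes 24.1% were called higher and 21.7% lower. Whether ligands and receptors differed from each other was not tested. The count of ligands that fell was 6 without control replicate 2 (16.1% of all genes were then called lower) and 6 without control replicate 3 (16.8% of all genes). With the summed level of Y-linked genes as a covariate (199, 244 and 208 CPM in the mutants, against 192, 36.2 and 87.5 CPM in the controls) 5 ligands and 4 receptors were called lower, and 5 ligands and 5 receptors higher. Among the controls only replicate 1 was near the mutants in that level, so the covariate went largely with genotype. The adjusted comparison therefore leaned on control replicate 1. Under that covariate 17 of the 30 calls were kept, and Epha3 and Epha7 were newly called lower, beside Ephb1 and Plxna4 among receptors. The calls of Efna5, Efnb3, Epha5, Epha8, Nrp1, Plxna1, Plxna3, Plxnb2, Sema3a, Sema3b, Sema5a, Sema6b and Sema7a were lost, and 30.3% of all genes were called, 16.4% higher and 13.9% lower.

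**Figure D1:**
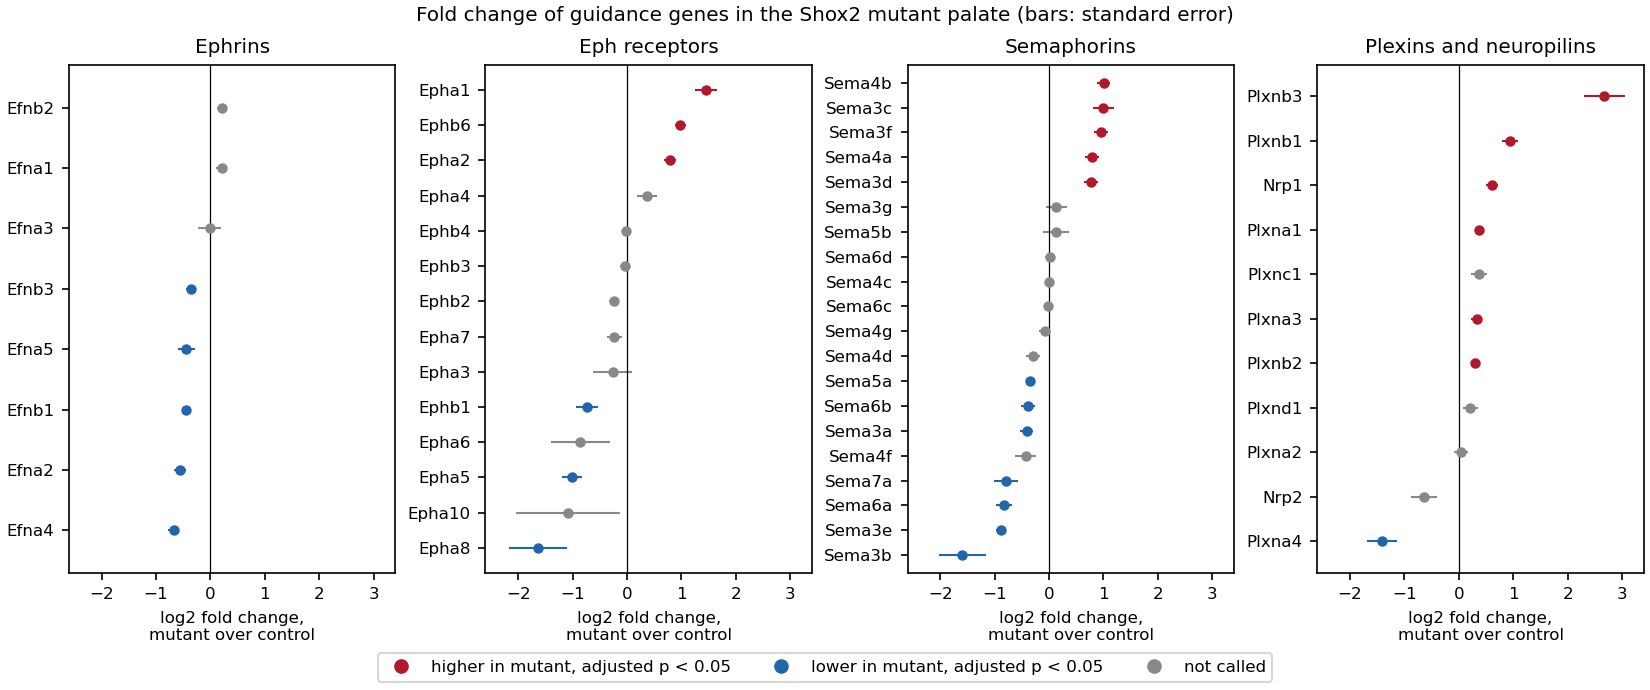
Log2 fold change (mutant over control, horizontal axis) of each of the 53 guidance genes, in 4 panels by family, with bars of 1 standard error and colour for the edgeR call (red higher, blue lower, grey not called). The 5 ephrins drawn in blue lie below 0, the 5 plexins drawn in red lie above 0, Plxna4 lies below 0, and Plxnb3 is the highest at 2.68.

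The promoter sequences of 4 guidance genes are printed because these genes had the highest and the lowest fold changes among members past 2-fold that have an entry in the promoter table. Each runs 5′ to 3′ from 250 bases before to 50 after the gene start, from RefSeq on GRCm38.p6. The windows are Plxnb3 at chrX:73756853-73757152 on the plus strand, and on the minus strand Epha1 at chr6:42373219-42373518, Epha8 at chr4:136956767-136957066 and Epha5 at chr5:84417333-84417632. Capitals mark TAATTA, a core letter pattern bound by many homeodomain proteins and its own reverse complement.
Plxnb3: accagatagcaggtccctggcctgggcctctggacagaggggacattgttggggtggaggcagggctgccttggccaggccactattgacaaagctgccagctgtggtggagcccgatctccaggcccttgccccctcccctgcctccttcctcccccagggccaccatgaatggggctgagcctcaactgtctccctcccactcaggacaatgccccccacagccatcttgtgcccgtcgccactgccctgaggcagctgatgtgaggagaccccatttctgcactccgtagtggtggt
Epha1: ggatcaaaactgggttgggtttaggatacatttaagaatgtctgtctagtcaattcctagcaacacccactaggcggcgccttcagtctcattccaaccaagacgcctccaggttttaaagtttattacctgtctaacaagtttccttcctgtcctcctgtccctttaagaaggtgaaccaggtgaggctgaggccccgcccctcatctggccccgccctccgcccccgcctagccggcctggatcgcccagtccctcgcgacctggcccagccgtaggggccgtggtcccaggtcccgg
Epha8: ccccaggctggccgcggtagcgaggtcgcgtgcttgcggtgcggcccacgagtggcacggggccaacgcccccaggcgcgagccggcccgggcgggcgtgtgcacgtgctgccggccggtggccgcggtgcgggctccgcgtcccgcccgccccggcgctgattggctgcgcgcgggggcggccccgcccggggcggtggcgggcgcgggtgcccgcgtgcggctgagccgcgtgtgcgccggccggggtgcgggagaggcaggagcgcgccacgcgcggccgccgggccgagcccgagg
Epha5: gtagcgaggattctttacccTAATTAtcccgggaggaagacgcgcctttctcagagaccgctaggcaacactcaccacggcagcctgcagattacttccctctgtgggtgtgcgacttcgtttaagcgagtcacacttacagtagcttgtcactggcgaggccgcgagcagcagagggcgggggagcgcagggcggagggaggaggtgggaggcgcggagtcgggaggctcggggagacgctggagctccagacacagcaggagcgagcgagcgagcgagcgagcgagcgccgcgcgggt
Of these 4 windows only that of Epha5 held TAATTA, from base 21 of the window. The letters were in 2 of the 61 windows that belong to guidance genes (3.28%), against 5.29% of all 32851 windows in the table. The other guidance gene with them was Efna1, which was not called. Windows were listed for 47 of the 53 genes. Such a match describes letters in the sequence and is no evidence of binding.

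Among the ephrins, 5 of 8 fell (62.5%, against 21.7% of all genes) and none was called higher (24.1% of all genes). The 5 were Efna2, Efna4 and Efna5, lipid-anchored ligands of EphA receptors, and Efnb1 and Efnb3, transmembrane ligands of EphB receptors. Their decreases were between 1.27-fold and 1.59-fold, and none passed the test against 1.5-fold. Efna1, Efna3 and Efnb2 were not called.

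Efnb1 (chromosome X, 99136130 to 99148991, plus strand), the B-type ligand with the highest level, had 129, 143 and 143 CPM in the mutants, against 198, 186 and 179 CPM in the controls. Every mutant lay below every control, and the log2 fold change was -0.44 (SE 0.07, edgeR adjusted p = 0.00278). Efnb3 had 66.8, 81.7 and 73.3 CPM in the mutants, against 96.9, 98.4 and 87.1 CPM in the controls (-0.35, SE 0.09, edgeR adjusted p = 0.0179). Here too the groups did not overlap, but the call was lost without control replicate 2 (adjusted p = 0.0599) or mutant replicate 3 (0.0575). Efnb2, best known as an arterial ligand of Ephb4, was slightly above the controls in all 3 mutants, with 149, 127 and 119 CPM, against 116, 108 and 117 CPM in the controls. Its log2 fold change of 0.21 (SE 0.09) did not pass (edgeR adjusted p = 0.106) and was -0.01 with the uncentred GC and length correction.

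Efna4 (chromosome 3, 89333390 to 89338028, minus strand) was the A-type ephrin with the highest level per length over all libraries. It had 35.2, 35.5 and 31.1 CPM in the mutants, against 60.7, 51.7 and 50.2 CPM in the controls, with a log2 ratio of -0.67 (SE 0.10, edgeR adjusted p = 0.00184). All mutant values were below all control values. An antisense gene shares 10.5% of its exon bases, and reads of the pair cannot be told apart here because strand was not stated. Efna2 had 37.1, 34.3 and 41.2 CPM in the mutants, against 62.2, 54.3 and 49.4 CPM in the controls (-0.56, SE 0.11, edgeR adjusted p = 0.00564), again without overlap. For Efna5 the groups overlapped: 93.5, 76.4 and 70.8 CPM in the mutants, against 88.4, 122 and 116 CPM in the controls. Its call (-0.44, SE 0.15, edgeR adjusted p = 0.0447) was lost without control replicate 2 or 3 or mutant replicate 2 or 3 (adjusted p 0.122 to 0.137).

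Efna1, a ligand of Epha2, was 49.9 ± 0.758 CPM in the mutants and 43.3 ± 5.19 CPM in the controls (SD, n = 3 each), with no call (0.21, SE 0.10, edgeR adjusted p = 0.12). With the GC and length correction its direction turned, to -0.02 when centred and to -0.23, called lower, when uncentred (adjusted p = 0.0255). Efna1, Efna3 and Efna4 are neighbours on chromosome 3, 32.8 kb and 10.4 kb apart, and of these only Efna4 was called. Summed per kilobase of exon, the 5 A-type ephrins reached 92.7 ± 1.11 CPM per kb in the mutants and 117 ± 1.19 CPM per kb in the controls (SD, n = 3 each). The 3 B-type ephrins reached 82.5 ± 2.70 CPM per kb in the mutants and 100.6 ± 4.202 CPM per kb in the controls. The sums of both types did not overlap between the groups.

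**Figure D2:**
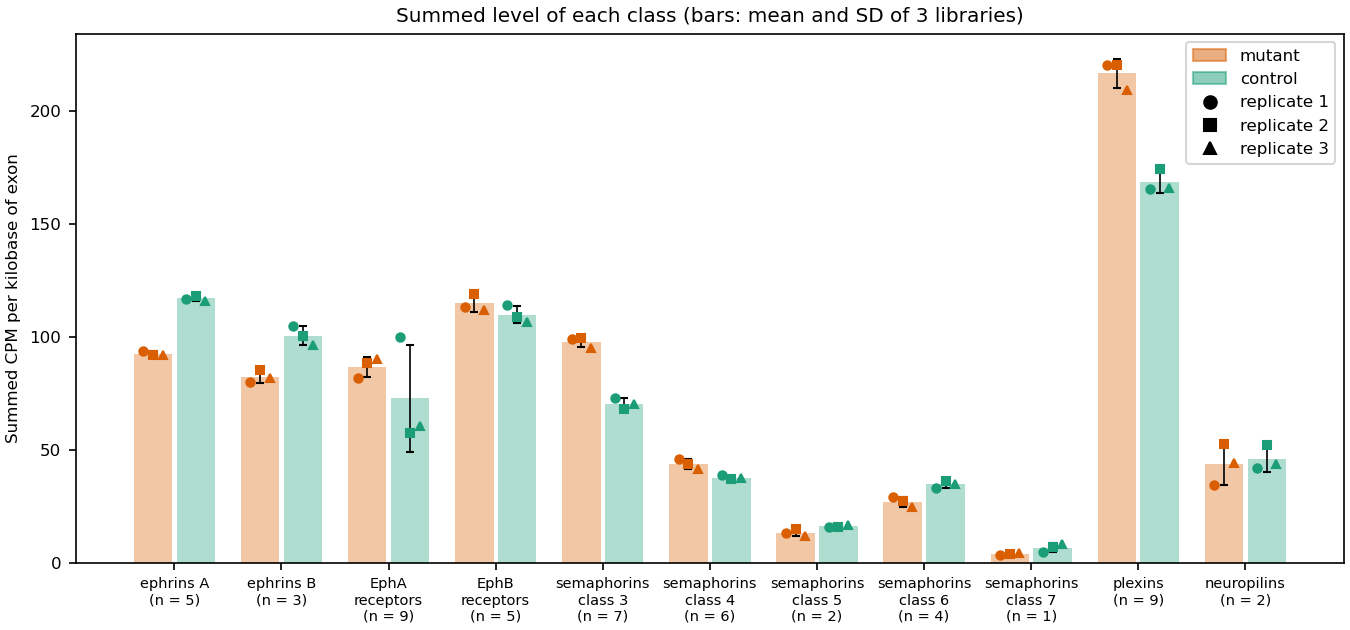
Summed level of each class in CPM per kilobase of exon (vertical axis), with bars for the mean, error bars for the SD of 3 libraries and 1 symbol per replicate. A-type and B-type ephrins and semaphorins of classes 5, 6 and 7 are lower in every mutant. Plexins and semaphorins of classes 3 and 4 are higher in every mutant. EphA receptors, EphB receptors and neuropilins overlap, and control replicate 1 lies above both other controls in the EphA receptors.

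Of the 14 Eph receptors 3 rose (Epha1, Epha2 and Ephb6), 3 fell (Epha5, Epha8 and Ephb1) and 8 were not called. The shares of 21.4% in each direction lie near those of all genes. Those that rose averaged 49.0 to 73.3 CPM in the mutants, and those that fell 1.74 to 14.3 CPM.

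Epha1 (chromosome 6, 42358487 to 42373268, minus strand), a receptor of A-type ephrins known from epithelia, had 62.0, 69.8 and 80.0 CPM in the mutants, against 31.3, 18.3 and 27.5 CPM in the controls. The lowest mutant was above the highest control, with a log2 ratio of 1.46 (SE 0.20, edgeR adjusted p = 0.00137). Zyx on the opposite strand shares 236 of its exon bases (6.01%). Epha2, another epithelial receptor of A-type ephrins, averaged 49.0 ± 3.397 CPM in the mutants and 28.4 ± 3.74 CPM in the controls (0.79, SE 0.11, edgeR adjusted p = 0.00163). Ephb6, whose kinase domain is inactive, had 80.4, 69.9 and 69.7 CPM in the mutants, against 34.9, 33.9 and 42.2 CPM in the controls (0.99, SE 0.11, edgeR adjusted p = 0.000589). The groups of all 3 genes were separate. Epithelial markers were higher in the same libraries (8770 to 10742 CPM in the mutants, against 1441 to 2466 CPM in the controls), and their part in these results was not tested.

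Epha5 and Epha8 are receptors of A-type ephrins best known from the nervous system. Epha5 (chromosome 5, 84054761 to 84417382, minus strand) had 4.98, 6.58 and 5.55 CPM in the mutants, against 9.52, 13.1 and 11.7 CPM in the controls. No values overlapped, and the log2 ratio was -1.003 (SE 0.18, edgeR adjusted p = 0.00403). With the Y-linked level as a covariate the call was lost (adjusted p = 0.0518). Epha8 (chromosome 4, 136929419 to 136956816, minus strand) had 0.618, 1.87 and 2.74 CPM in the mutants, against 3.09, 7.12 and 5.99 CPM in the controls, and replicate 1 was the lowest of each group. Its log2 fold change was -1.64 (SE 0.54, edgeR adjusted p = 0.0415). Leaving out mutant replicate 1 or 2 or control replicate 2 or 3 ended that call (adjusted p 0.0508 to 0.116).

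Ephb1, a receptor of B-type ephrins, had 12.1, 17.1 and 13.8 CPM in the mutants, against 30.2, 19.8 and 21.5 CPM in the controls (-0.73, SE 0.20, edgeR adjusted p = 0.0204). The groups did not overlap, but the call was lost without mutant replicate 1 (adjusted p = 0.0568) or mutant replicate 3 (0.0655). The 6 neuronal markers named above fell in the same libraries without overlap, among them Tubb3 (4.79 to 5.53 CPM in the mutants, against 24.0 to 56.3 CPM in the controls, log2 ratio -2.93) and Stmn2 (9.59 to 15.3 CPM in the mutants, against 19.5 to 36.9 CPM in the controls, -1.32). Nefl, Nefm and Syt1, also neuronal, overlapped and were not called (-0.25, -1.22 and 0.48). The part of neuronal RNA in the values of Epha5, Epha8 and Ephb1 was not tested.

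Ephb4 (chromosome 5, 137350109 to 137378669, plus strand), the venous receptor of Efnb2 and the Eph receptor with the highest level per length, gave almost the same values in both groups. It had 279.6, 309 and 278 CPM in the mutants, against 303, 295.5 and 283 CPM in the controls, and differed by a log2 ratio of -0.02 (SE 0.07, edgeR adjusted p = 0.8). Ephb3 was not called, with 142 ± 10.9 CPM in the mutants and 145 ± 15.2 CPM in the controls (SD, n = 3 each). For Ephb2, 123 ± 10.8 CPM in the mutants stood against 145 ± 11.5 CPM in the controls (-0.23, SE 0.09, edgeR adjusted p = 0.0677). Without control replicate 1 or mutant replicate 1 Ephb2 was called lower (adjusted p = 0.0411 and 0.0236).

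Control replicate 1 decided the values of Epha3 and Epha4. Epha3 had 155, 212 and 191 CPM in the mutants, against 376, 146 and 148 CPM in the controls, so that control replicate 1 was above every other library and the other 2 controls below every mutant. Its log2 ratio, -0.26 over all libraries (SE 0.37, edgeR adjusted p = 0.585), became 0.33 without control replicate 1 (adjusted p = 0.0855). Without replicate 1 of both groups it was 0.44 and called higher (adjusted p = 0.00173). Epha4 had 206, 202 and 194 CPM in the mutants, against 207, 128 and 129 CPM in the controls. It was not called over all libraries (0.38, SE 0.18, edgeR adjusted p = 0.132) but was called without control replicate 1 (0.63, adjusted p = 0.000733). Epha7 showed a like pattern in the controls, with 163 CPM in control replicate 1 and 116 and 115 CPM in the other 2, and was not called (mutants 116, 106 and 113 CPM). With the Y-linked covariate the direction of call was the opposite one for Epha3, which was called lower (-0.95, adjusted p = 0.0388), and Epha7 was called lower as well (-0.49, adjusted p = 0.0365). In control replicate 1 the osteoblast sum was at its lowest (6167 CPM), though 8 of the 10 called osteoblast markers were above every mutant there too. The skeletal muscle sum was at its highest in that library (102 CPM, against 16.4 and 38.4 CPM in the other 2 controls). So was the nerve and glial sum (230 CPM, against 185 and 121 CPM). The part of these cell types in the values of Epha3, Epha4 and Epha7 was not tested.

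Epha6 and Epha10 were at the edge of detection. Epha6 had 6, 20 and 23 counts in the mutants, against 55, 40 and 76 counts in the controls, and Epha10 had 16, 0 and 12 counts, against 29, 59 and 21 counts. Neither was called, and a difference was not detectable at this depth. Summed per kilobase, EphA receptors reached 86.9 ± 4.34 CPM per kb in the mutants and 72.8 ± 23.8 CPM per kb in the controls (SD, n = 3 each). Control replicate 1 alone was at 100.2 CPM per kb. EphB receptors reached 115 ± 3.74 CPM per kb in the mutants and 110 ± 3.80 CPM per kb in the controls.

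Of the 20 semaphorins 5 rose (25%, against 24.1% of all genes) and 7 fell (35%, against 21.7%), and the class 3 members, which are secreted, held 6 of these 12 calls. Sema3c, Sema3d and Sema3f rose, Sema3a, Sema3b and Sema3e fell, and Sema3g was not called. Per kilobase of exon the class summed to 98.0 ± 2.43 CPM per kb in the mutants and 70.5 ± 2.52 CPM per kb in the controls (SD, n = 3 each), with every mutant above every control.

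Sema3f (chromosome 9, 107681500 to 107710475, minus strand), which signals mainly through Nrp2, was the semaphorin with the highest level per length. It had 242, 246 and 246 CPM in the mutants, against 153, 106 and 121 CPM in the controls. The mutants were nearly equal and all above the controls, with a log2 ratio of 0.95 (SE 0.13, edgeR adjusted p = 0.0013). By level per kilobase it ranked 3 among the 53 genes in the mutants (47.1 ± 0.467 CPM per kb) and 12 in the controls (24.3 ± 4.57 CPM per kb). Its share of the class 3 sum was 48.1 ± 1.41% in the mutants and 34.4 ± 5.24% in the controls (SD, n = 3 each).

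Sema3c (chromosome 5, 17574281 to 17730268, plus strand), a ligand needed for the cardiac outflow tract in mice, had 52.4, 55.8 and 52.1 CPM in the mutants, against 36.4, 22.0 and 21.6 CPM in the controls. Control replicate 1 was above the other 2 controls, yet below all mutants, and the log2 fold change was 1.003 (SE 0.20, edgeR adjusted p = 0.00608). Sema3d had 254, 233 and 204 CPM in the mutants, against 160.2, 119 and 125 CPM in the controls, without overlap (0.77, SE 0.13, edgeR adjusted p = 0.00318). Both calls held when any single library was left out.

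Sema3e, which binds Plxnd1 without needing a neuropilin, had 35.2, 29.4 and 28.4 CPM in the mutants, against 54.2, 59.2 and 57.9 CPM in the controls. Every mutant was far below every control (-0.88, SE 0.10, edgeR adjusted p = 0.000645). Sema3a, the classical Nrp1 ligand that repels axons, had 89.2, 105 and 109.7 CPM in the mutants, against 117, 137.7 and 149 CPM in the controls (-0.41, SE 0.11, edgeR adjusted p = 0.0218). Its groups did not overlap, but the call was lost without control replicate 2 or 3 or mutant replicate 1 or 2 (adjusted p 0.0509 to 0.0736).

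Sema3b (chromosome 9, 107597674 to 107609229, minus strand) had 10.8, 12.3 and 13.9 CPM in the mutants, against 14.0, 49.8 and 47.8 CPM in the controls. Control replicate 1 was thus level with the mutants and the other 2 controls far above them, and the log2 fold change was -1.59 (SE 0.43, edgeR adjusted p = 0.0207). The call was lost without control replicate 2 or 3 or any single mutant (adjusted p 0.0542 to 0.0682), with limma-voom (0.0968) and with the Y-linked covariate (0.457). Without control replicate 1 it was -1.99 (adjusted p = 0.000304). The osteoblast sum had the same order among the controls (6167 CPM in replicate 1, 18355 and 15637 CPM in replicates 2 and 3). For 8 of the 10 called osteoblast markers, control replicate 1 was nonetheless above every mutant. The part of osteoblast RNA in the result was not tested.

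Some near neighbours in this class changed in opposite directions. Sema3b and Sema3f lie 72.3 kb apart on chromosome 9, and the first fell while the second rose. On chromosome 5, Sema3d rose and Sema3a, 536 kb further on, fell. Sema3e, 423 kb beyond Sema3a, fell, and Sema3c, another 3.32 Mb on, rose.

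**Figure D3:**
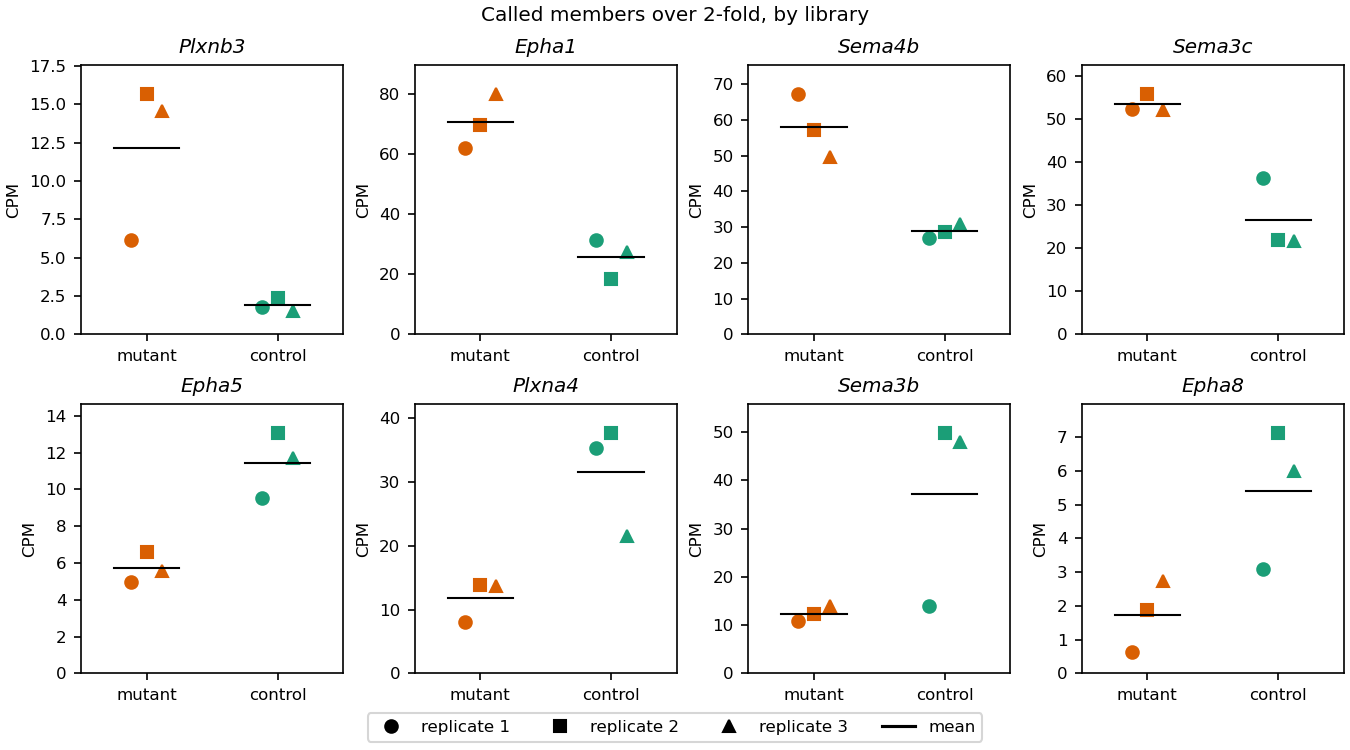
Level in CPM (vertical axis, from 0, a scale per panel) of the 8 guidance genes called and changed over 2-fold, with 1 symbol per library and a line at each group's mean. Plxnb3, Epha1, Sema4b and Sema3c are higher in all 3 mutants, Epha5, Plxna4, Sema3b and Epha8 are lower in all 3, and the Sema3b symbol of control replicate 1 lies beside the mutants.

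The membrane-bound semaphorins of classes 4 to 7 gave 2 rises and 4 falls among 13 genes, a share of calls near that of all genes (46.2%, against 45.8%). The shares were 15.4% higher and 30.8% lower, against 24.1% and 21.7% of all genes. Class 4 held the rises, Sema4a and Sema4b, while Sema4c, Sema4d, Sema4f and Sema4g were not called. The falls were Sema5a, Sema6a, Sema6b and Sema7a.

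Sema4b (chromosome 7, 80186841 to 80226527, plus strand) had 67.2, 57.2 and 49.6 CPM in the mutants, against 27.1, 28.5 and 31.0 CPM in the controls, with a log2 ratio of 1.01 (SE 0.12, edgeR adjusted p = 0.000835). Sema4a, a membrane semaphorin with known roles in immune cells and the retina, had 35.7, 32.5 and 37.1 CPM in the mutants, against 22.6, 17.2 and 21.1 CPM in the controls (0.79, SE 0.12, edgeR adjusted p = 0.00223). Both genes were higher in each mutant than in any control. Epithelial and macrophage markers were also higher in every mutant, and their part in these results was not tested. Sema4d, the ligand of Plxnb1, was lower in every mutant without a call (27.8 ± 4.52 CPM in the mutants and 34.1 ± 1.32 CPM in the controls, -0.29, edgeR adjusted p = 0.0943). It was called without mutant replicate 2 (adjusted p = 0.0378), and Sema4f without mutant replicate 1 (0.0462). Sema4c was level, at 78.2 ± 2.11 CPM in the mutants and 78.6 ± 1.73 CPM in the controls (SD, n = 3 each).

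Sema6a, a transmembrane ligand of Plxna2 and Plxna4, had 98.7, 75.03 and 68.3 CPM in the mutants, against 129.7, 154 and 145 CPM in the controls (-0.82, SE 0.14, edgeR adjusted p = 0.00331). The groups were separate and the call held without any single library. Sema5a had 212, 233 and 193 CPM in the mutants, against 269, 260.1 and 282 CPM in the controls (-0.35, SE 0.08, edgeR adjusted p = 0.0135), a call lost without control replicate 3 (adjusted p = 0.053). Sema7a, the lipid-anchored ligand of Plxnc1, averaged 12.9 ± 1.95 CPM in the mutants and 22.2 ± 6.14 CPM in the controls (-0.79, SE 0.22, edgeR adjusted p = 0.0235). Its call ended without control replicate 2 or 3 or mutant replicate 1 or 2 (adjusted p 0.0656 to 0.0753). Sema6b, at 7.38 ± 0.373 CPM in the mutants and 9.60 ± 0.353 CPM in the controls, passed narrowly (-0.38, SE 0.13, edgeR adjusted p = 0.0461). Its call was lost whichever library was left out (adjusted p 0.0684 to 0.135). Sema5b, Sema6c and Sema6d were not called, with log2 fold changes of 0.13, -0.02 and 0.02.

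Plexins, which carry the semaphorin signal into the cell, gave 5 rises among 9 genes (Plxna1, Plxna3, Plxnb1, Plxnb2 and Plxnb3), while Plxna4 fell and 3 were not called. The shares were 55.6% higher and 11.1% lower, beside 24.1% and 21.7% of all genes. Their summed level was 217 ± 6.39 CPM per kb in the mutants and 169 ± 4.998 CPM per kb in the controls (SD, n = 3 each), without overlap. Epithelial and macrophage marker sums, given above, were also higher in every mutant, and their part in the plexin values was not tested. With the uncentred GC and length correction Plxna1, Plxna3 and Plxnb2 were no longer called (adjusted p 0.117 to 0.517), and the same 3 lost their calls with the Y-linked covariate (0.0534 to 0.118), which left Plxnb1 and Plxnb3 higher.

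Plxnb3 (chromosome X, 73757090 to 73772514, plus strand) had 6.18, 15.7 and 14.54 CPM in the mutants, against 1.79, 2.35 and 1.55 CPM in the controls. Mutant replicate 1 was below the other 2 mutants and above all controls, and the log2 ratio of 2.68 (SE 0.38, edgeR adjusted p = 0.00153) was the largest of the 53. Plxnb1, the receptor of Sema4d, had 366, 266 and 269 CPM in the mutants, against 173, 138.2 and 159 CPM in the controls (0.94, SE 0.15, edgeR adjusted p = 0.00217). Plxnb2 (chromosome 15, 89155549 to 89180788, minus strand), the guidance gene with the highest level per length, had 631, 604 and 568 CPM in the mutants, against 485, 511 and 474 CPM in the controls (0.29, SE 0.08, edgeR adjusted p = 0.0161). All 3 B-type plexins were separate between the groups. The call of Plxnb2 was lost without control replicate 3 (adjusted p = 0.0709) or mutant replicate 2 (0.0569). B-type plexins bind membrane semaphorins of class 4. Of those 6 ligands 2 rose and 4 were not called, among them Sema4d, which was lower in every mutant.

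Plxna1 and Plxna3 partner neuropilins in receptors for class 3 semaphorins. Plxna1 had 326, 355 and 349.9 CPM in the mutants, against 290.2, 256 and 250.4 CPM in the controls (0.37, SE 0.08, edgeR adjusted p = 0.00854), and an antisense gene shares 10.7% of its exon bases. Plxna3 averaged 111 ± 14.8 CPM in the mutants and 88.9 ± 1.89 CPM in the controls (0.33, SE 0.10, edgeR adjusted p = 0.0291). The Plxna3 call was lost without mutant replicate 2 or any single control (adjusted p 0.064 to 0.0779). Plxna4 (chromosome 6, 32144268 to 32588192, minus strand), a receptor of class 3 and class 6 semaphorins known from neurons, ran against the others. It had 8.10, 13.9 and 13.6 CPM in the mutants, against 35.3, 37.7 and 21.5 CPM in the controls, all mutants being lower (-1.41, SE 0.28, edgeR adjusted p = 0.0057). The 6 neuronal markers named above also fell without overlap, while the neuronal Nefl, Nefm and Syt1 overlapped and were not called. The part of neuronal RNA in the result was not tested.

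Plxna2, Plxnc1 and Plxnd1 were not called. Plxnd1, an endothelial receptor of Sema3e, had 292, 372 and 336 CPM in the mutants, against 234, 327 and 303 CPM in the controls, with a log2 ratio of 0.21 (SE 0.14, edgeR adjusted p = 0.26). Replicate 1 was the lowest of each group, and the groups overlapped. Plxnc1, the receptor of Sema7a, was just short of a call in the main fit (0.37, SE 0.14, edgeR adjusted p = 0.0691). It was called higher without control replicate 1 (adjusted p = 0.00969). Over all libraries it was called higher with DESeq2 (0.0419), limma-voom (0.0498), library size only (0.0467) and the centred GC and length correction (0.0446).

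Of the 2 neuropilins Nrp1 rose and Nrp2 was not called. Nrp1, co-receptor for Sema3a and for VEGF, had 209, 281 and 225 CPM in the mutants, against 162, 154 and 153 CPM in the controls (0.61, SE 0.11, edgeR adjusted p = 0.00444). Nrp2 (chromosome 1, 62703285 to 62818695, plus strand), co-receptor for Sema3f and the neuropilin with the higher level per length over all libraries, had 153, 280.2 and 252 CPM in the mutants, against 299, 434 and 331 CPM in the controls. No mutant value of Nrp2 reached a control value, but its log2 fold change of -0.64 (SE 0.24) did not pass (edgeR adjusted p = 0.0608). Nrp2 was called lower without control replicate 1 (adjusted p = 0.0499) and with DESeq2 (0.0122). Of the neuropilin sum per kilobase, Nrp1 made up 62.4%, 54.9% and 52.0% in the mutants, against 39.6%, 30.1% and 35.9% in the controls. The sum itself overlapped, at 43.7 ± 9.09 CPM per kb in the mutants and 46.0 ± 5.61 CPM per kb in the controls (SD, n = 3 each). The Nrp1 call held without any single library and was lost with the Y-linked covariate (adjusted p = 0.0529). Endothelial markers, given above, were summed to overlapping ranges, and their part in the result was not tested.

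**Figure D4:**
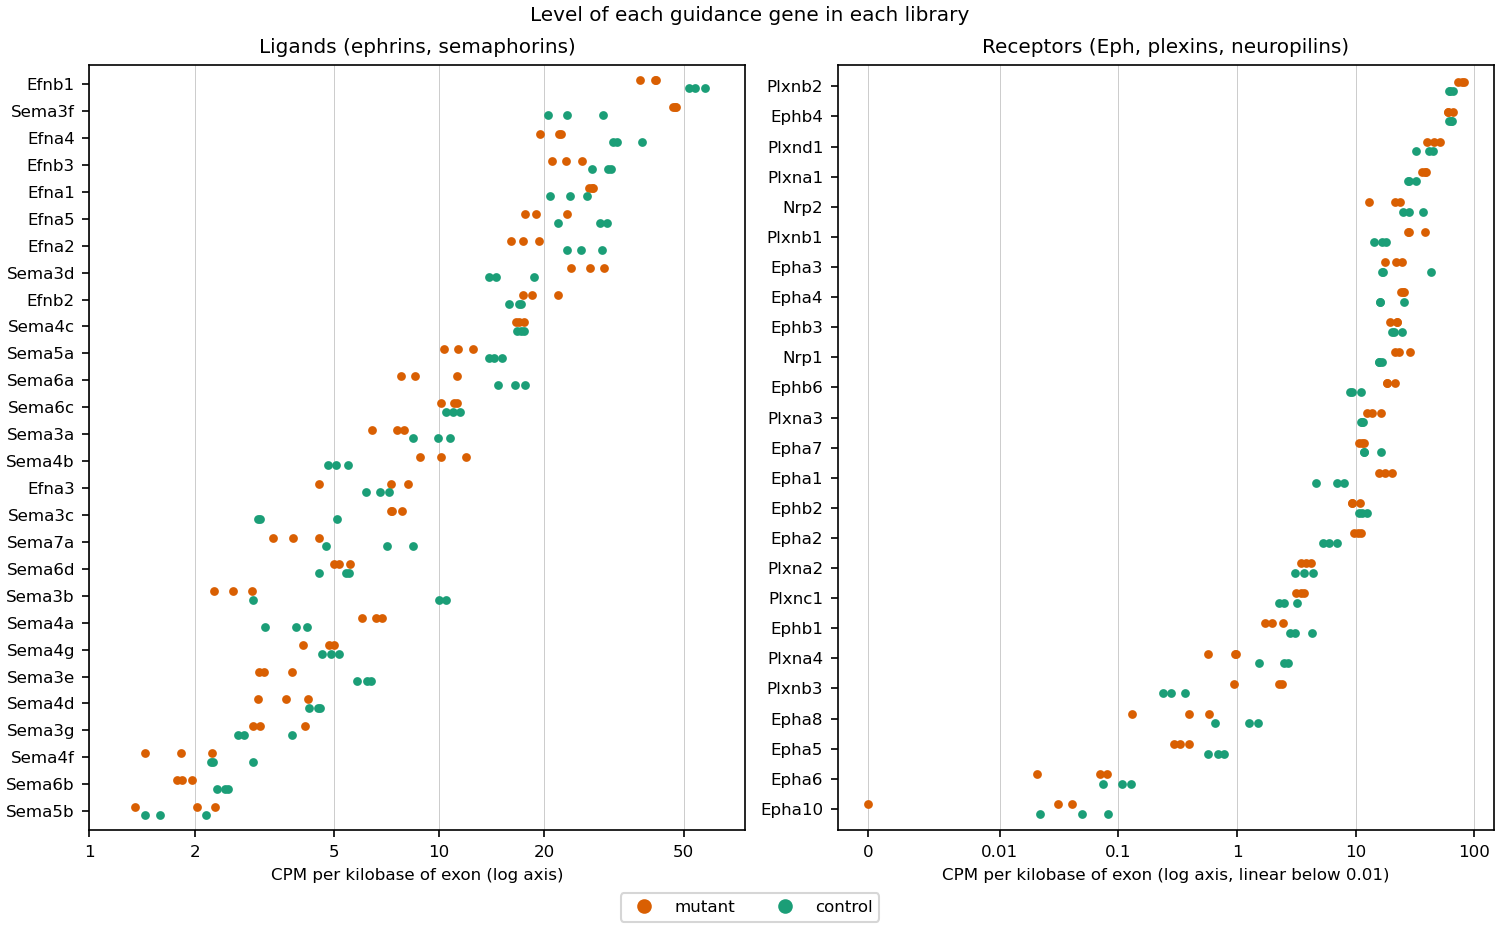
Level of each of the 53 guidance genes in every library, in CPM per kilobase of exon (horizontal log axis, linear below 0.01 for receptors), with ligands and receptors in separate panels ordered by mean level and the mutants drawn just above the controls. Efnb1 heads the ligands and Plxnb2 the receptors, and Epha10 is at 0 in mutant replicate 2.

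Per length, the highest levels of the 53 genes in the mutants were those of Plxnb2 (77.9 ± 4.14 CPM per kb), Ephb4 (62.3 CPM per kb), Sema3f (47.1 CPM per kb) and Plxnd1 (45.7 CPM per kb). The controls had 63.5 ± 2.42, 63.3, 24.3 and 39.4 CPM per kb of these. Efnb1, at 40.1 CPM per kb in the mutants and 54.4 CPM per kb in the controls, was the ligand with the highest level in the controls. Summed over all ligands, the level was 361 ± 8.33 CPM per kb in the mutants and 384 ± 3.57 CPM per kb in the controls. Over all receptors it was 462 ± 16.1 CPM per kb in the mutants and 397 ± 22.6 CPM per kb in the controls (SD, n = 3 each). No member lies close to the targeted locus on chromosome 3: the nearest, Sema4a, is 21.5 Mb away.

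Other guidance genes, taken as 4 lists of 84 genes, of which 83 were tested, gave 19 rises and 21 falls. That is 22.9% and 25.3%, beside 24.1% and 21.7% of all genes. Of 25 genes that transmit Eph and ephrin signals 7 rose (28%) and 3 fell (12%). Ngef, a guanine nucleotide exchange factor that binds EphA receptors, had 8.83, 6.82 and 7.69 CPM in the mutants, against 1.08, 1.53 and 1.49 CPM in the controls (2.51, SE 0.22, edgeR adjusted p = 0.000341). Vav3, another exchange factor, had 76.9, 75.5 and 75.7 CPM in the mutants, against 24.4, 18.9 and 26.4 CPM in the controls (1.71, SE 0.13, edgeR adjusted p = 0.000234). Ptpn13, a tyrosine phosphatase with PDZ domains, also rose (1.16, SE 0.16, edgeR adjusted p = 0.00159). None of the 3 overlapped between the groups.

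Of 32 genes tested that transmit semaphorin and plexin signals 6 rose (18.75%, against 24.1% of all genes) and 11 fell (34.4%, against 21.7% of all genes). Crmp1, a relay of the Sema3a signal to the cytoskeleton, had 9.96, 9.47 and 7.78 CPM in the mutants, against 30.6, 25.8 and 18.3 CPM in the controls (-1.46, SE 0.21, edgeR adjusted p = 0.00154). Mical1, an enzyme that binds plexins and oxidises actin, fell (-0.60, SE 0.08, edgeR adjusted p = 0.00121), and Met, a receptor tyrosine kinase that associates with B-type plexins, rose (0.79, SE 0.08, edgeR adjusted p = 0.000506). Of 10 Slit and Robo genes 3 rose (30%) and 2 fell (20%). The Robo ligand Slit1 was higher in all mutants at low levels (4.61, 1.55 and 1.68 CPM, against 0.198, 0.327 and 0.792 CPM in the controls), and it rose by test (2.55, SE 0.65, edgeR adjusted p = 0.0161). Robo3 rose (2.13, SE 0.42, edgeR adjusted p = 0.00568) and Srgap1, a GTPase-activating protein that binds Robo receptors, fell (-0.45, SE 0.11, edgeR adjusted p = 0.015). Of 16 genes of netrins, their receptors, RGM proteins, draxin and FLRT proteins 3 rose (18.75%, Flrt2 among them) and 5 fell (31.25%, Flrt3 among them). Among them Ntn3 (-0.56, SE 0.08, edgeR adjusted p = 0.00162) and the receptor Neo1 (-0.37, SE 0.08, edgeR adjusted p = 0.00679) fell, while Rgma, a ligand of Neo1, rose (0.60, SE 0.09, edgeR adjusted p = 0.00214). The 1.5-fold test left 6 rises and 2 falls among the 83 (11.8% and 3.04% of all genes). The falls numbered 11 without control replicate 2 (16.1% of all genes were then lower) and 13 without mutant replicate 3 (2914 of all 16944 genes). With the Y-linked covariate 12 were higher and 9 lower (16.4% and 13.9% of all genes). With the uncentred GC and length correction 12 were higher and 36 lower (18% and 37.2% of all genes).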

How the data were processed

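RNA was measured in 6 libraries of palatal tissue, 3 per genotype, grouped by the genotype labels and numbered by the titles. Each library has 1 deposited table of raw counts by gene symbol, whole numbers that the authors had not normalized. HISAT2, StringTie and the builds mm9 and mm10 are named per the submitters' processing notes, and HISAT2 per the file headers of 4 files. Which program counted reads, on which strand and annotation, and what it did with reads shared by related genes was not given in the sources used here. Among counts from 5 to 50, even numbers made up 99.7%, 73.0% and 65.9% in mutant replicates 1, 2 and 3, against 63.6%, 64.1% and 64.5% in the controls, so the counts are not all independent reads.

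Counts were filtered with filterByExpr, scaled by TMM and tested with the quasi-likelihood F test of edgeR 4.0.16 in R 4.3.3, mutant against control without covariates, over 16604 genes. Adjusted p is Benjamini-Hochberg over all of these, with a threshold of 0.05. SE was computed as the absolute log2 fold change over the square root of F. The fit was tested on 5 sets of simulated counts, in which far fewer genes were changed than were called here. It recovered 26.9% of 1.5-fold, 58.2% of 2-fold and 79.4% of 4-fold changes, so a gene not called may still have changed. Levels per kilobase use the union of exons in GENCODE M21, which matched 21777 of 23420 symbols and all 53 members. The 18 alternatives, among them DESeq2 1.42.0, limma-voom (limma 3.58.1), GC and length correction (mgcv 1.9.3) and leaving out libraries, are given in the closing section.

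Values in every library are given for members called at 2-fold or more whose groups did not overlap and whose average log2 CPM reached 1, and for the member with the highest level per kilobase in each of 6 classes. Further members were given library values after their calls were seen. Of the other guidance lists, up to 3 called genes with the smallest p are named. The members and lists were chosen with earlier results of these data known. Medians and counts over members carry no test.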

Additional observations from a re-analysis of the deposited data

How the results depend on the processing

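Of the 30 called members, 19 kept their call when any single library was left out, 16 kept it under every alternative but the 1.5-fold test, and 8 kept it under all 18 (Epha1, Ephb6, Plxna4, Plxnb1, Plxnb3, Sema3e, Sema3f and Sema4b). Sema6b lost its call under 15 alternatives, and Efna5 under 10. Under the 1.5-fold test 2 ligands were higher and 1 lower, 4 receptors were higher and 1 lower, and 6 other guidance genes were higher and 2 lower (11.8% and 3.04% of all genes). With the Y-linked covariate 5 ligands were lower, 5 receptors higher, and 12 other guidance genes higher and 9 lower (16.4% and 13.9% of all genes). The uncentred GC and length correction gave 12 higher and 36 lower among other guidance genes (18% and 37.2% of all genes). Leaving out 1 library at a time gave 6 to 11 ligands lower (6 without control replicate 2 or 3), 7 to 10 receptors higher, 3 to 6 receptors lower, 5 ligands higher each time, and, among other guidance genes, 13 to 19 higher and 11 to 21 lower. The lowest of these were 13 higher without control replicate 2 or 3, and 11 lower without control replicate 2. Of all 16693 to 16986 genes tested in these fits, 3170 to 3998 were called higher and 2610 to 3661 lower. The log2 fold change of Epha3 ran from -0.50 to 0.33 when 1 library was left out (-0.4979 without control replicate 2 and 0.33 without control replicate 1) and turned to 0.44 without replicate 1 of both groups. With the Y-linked covariate it was -0.95 and called lower. Efna1 was -0.23 and called lower with the uncentred correction. That of Ephb4, never called, was 0.0066 with the centred correction, 0.0057 when 1 CPM was required in 3 libraries, 0.044 with library size only, -0.0755 to 0.0017 when 1 library was left out (0.0017 without mutant replicate 3) and 0.0103 without replicate 1 of both groups. The cause was not tested. Same-numbered mutants and controls deviated together with correlations of 0.0808, 0.0824 and 0.0199, none over 0.1. Pairs of unlike number ran from -0.0925 to 0.0478. With 3 libraries per group these values cannot decide whether same-numbered libraries belong together. With the replicate number as a block 14 members were higher and 15 lower: 5 ligands higher and 10 lower, 9 receptors higher and 5 lower, and 17 other guidance genes higher and 21 lower. The block ended the calls of Efna5 and Sema6b and brought a call of Nrp2 (-0.66, adjusted p = 0.0102). The centred correction ended those of Efna5, Epha8, Sema3a, Sema5a and Sema6b, and library size only those of Efna5 and Sema6b. Requiring 1 CPM kept 51 of the 53 members. Depth limits Epha6, Epha8 and Epha10, which had few counts in the mutants.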
